A study of Rattus norvegicus with 12 samples.

Results

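The cytosolic and mitochondrial heat shock chaperones described here are 10 genes, Hsph1, Hspa4, Hspa8, Hsp90aa1, Hsp90ab1, Hspd1, Hspe1, Dnajb1, Dnaja1 and the heat shock transcription factor gene Hsf1, out of 14497 genes named on the array. They were chosen by name, and each is represented by its brightest probe on average among the probes that the platform table links to it. All 10 were among the 10174 genes bright enough to be tested. The fall of Hsph1 after fasting was already known when the genes were chosen, so its fasting values are given as a description without a test. The brightness that selected each probe is likewise no result.

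Fetal livers were taken from Sprague Dawley rats on gestation day 19 of a term of 21 days. The fasted group came from dams kept without food for 48 hr from day 17, which is the model of intrauterine growth restriction used in the study, and the fed group from dams with free access to food. For each diet, polysome RNA (pooled preparations of messages carrying ribosomes, from a sucrose density gradient) and total liver RNA were each read on arrays of their own, of the type Affymetrix Rat Gene 1.0 ST. This gave 4 groups of 3 arrays, which were fasted total, fed total, fasted polysome and fed polysome. The arrays of a group are labelled as numbered biological replicates, and whether a number marks a dam is not given. Nothing in the labels says how many fetuses went into a sample. The gradient fractions that were pooled are not given in the sources used here.

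Chaperones bind unfolded or partly folded proteins and help them reach or keep their folded state. In the HSP70 system, J-domain proteins deliver substrates and HSP110 proteins exchange the nucleotide, HSP90 acts later on selected clients, and HSP60 with HSP10 forms the folding chamber of the mitochondrial matrix. HSF1 binds heat shock elements, inverted repeats of the bases GAA, and drives many of these genes when unfolded protein accumulates. The liver makes plasma proteins in bulk, and its cytosolic and mitochondrial chaperones are expressed without heat shock.

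The heat shock elements around the gene starts are shown first, as a feature of the DNA that did not enter the choice of probes. The genes themselves were chosen by name as heat shock genes, many of which HSF1 drives. The RefSeq promoter table (build GRCr8, 250 bases before to 50 after each gene start) matched 8 of the 10 genes. Both strands were searched for a triplet of repeat units, GAANNTTCNNGAA or TTCNNGAANNTTC, of which the 18-base runs of 4 units are extensions. A triplet was found in the windows of 5 of the 8 genes. It lay before the annotated start of Hsph1, Hspa8, Hspd1 and Hspe1 and just after that of Dnaja1. The background was 0.736% of all 27457 promoters and 0.414% of the 8452 tested genes with a promoter in the table. With genes chosen this way, a share of matches above the background is no independent result. Hspd1 and Hspe1 are counted separately although they share 1 element. The 30-base windows below run 5′ to 3′ along each gene's own strand, with the matched repeat in capitals.
Hsph1, chr12:10427324-10427353, plus strand: gccgcagaTTCTGGAAAGTTCtcctcagta
Hspa8, chr8:50080293-50080322, plus strand: gcgagcgtGAAAGTTCCAGAAcgctgcggt
Hspa8, chr8:50080451-50080480, plus strand: cggaacccTTCTGGAAGGTTCtaagacagg
Hspd1, chr9:64084256-64084285, minus strand: ggggccTTCCGGAAGGTTCTAGAAccgagc
Hspe1, chr9:64084256-64084285, plus strand: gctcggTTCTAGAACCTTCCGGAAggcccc
Dnaja1, chr5:60638405-60638434, plus strand: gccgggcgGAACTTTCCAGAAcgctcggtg

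The Hspd1 and Hspe1 lines are the same bases read on opposite strands. These genes lie head to head on chromosome 9, where the annotated Hspd1 (64073610 to 64084332) and Hspe1 (64084327 to 64087415) overlap by 6 bases, and they share 1 element of 18 bases at 64084262 to 64084279. The Hsph1 triplet ends 24 bases before the annotated start of the gene at 10427368 on chromosome 12, and the nearer of the Hspa8 triplets ends 43 bases before its start. The Dnaja1 triplet lies 10 to 22 bases after the annotated start. No triplet was found in the windows of Hspa4, Hsp90ab1 and Dnajb1. The shorter pair, GAANNTTC or TTCNNGAA, which every triplet contains, was found in 6 of the 8 windows against 15.4% of all promoters, the sixth being that of Dnajb1. The 250 bases before the Hsph1 start are printed in full, since this gene had the largest fasting difference of the 10, with the pair and the triplet in capitals.
Hsph1, chr12:10427118-10427367, plus strand: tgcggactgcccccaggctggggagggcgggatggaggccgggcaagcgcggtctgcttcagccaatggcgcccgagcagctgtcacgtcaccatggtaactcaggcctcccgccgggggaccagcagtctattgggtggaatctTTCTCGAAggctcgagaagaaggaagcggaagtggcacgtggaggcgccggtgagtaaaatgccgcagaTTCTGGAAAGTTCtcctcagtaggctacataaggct

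A match to these letters describes the sequence only, and binding of HSF1 was not measured. Values below are log2(intensity + 1) of the deposited intensities, and changes are differences on that scale with the SE of a limma fit to all 12 arrays. The adjusted p-values are from limma with Benjamini-Hochberg adjustment over the 10174 genes tested, and a gene is called where it is under 0.05. With 3 arrays a group, the number of arrays limits the precision, and values of different genes come from different probes and are not ranked against each other. Array medians lay between 101.3 and 108.33 intensity units, and arrays of 1 group correlated at 0.9914 to 0.9961 over all probes. In bulk liver RNA, fewer cells of a type and less RNA per cell cannot be told apart. The 10 hepatocyte markers summed to 16.82 to 16.88 in fasted total arrays and 16.83 to 16.87 in fed total arrays (log2 of the sum), and 0 of 10 were called for fasting in either fraction. The 8 measured erythroid and 5 neutrophil precursor markers had 0 called in either fraction as well. The 8 measured endothelial markers summed to 12.83 to 12.85 in fasted total arrays and 12.51 to 12.66 in fed total arrays. In polysome RNA they summed to 12.05 to 12.14 in fasted and 11.92 to 11.97 in fed arrays. Of these 8, 3 were called in total and 1 in polysome RNA, where 1.03% and 2.01% of all tested genes were called. Macrophage markers summed to 12.28 to 12.32 in fasted polysome arrays and 12.02 to 12.12 in fed polysome arrays, with 2 of 8 called there. In total RNA the macrophage sum was 12.75 to 12.88 in fasted and 12.56 to 12.63 in fed arrays, with 0 called. The 6 stellate cell markers summed to 10.71 to 10.80 in fasted polysome arrays and 10.42 to 10.63 in fed polysome arrays, with 2 called. The 3 measured megakaryocyte markers went the other way in polysome RNA, at 11.14 to 11.44 in fasted and 11.61 to 11.69 in fed arrays, with 0 called. The 9 measured exocrine pancreas genes summed to 9.37 to 9.57 in fasted total arrays and 9.85 to 11.85 in fed total arrays, with 1 called. Of these 9, 3 were too dim to be tested. The fed total arrays were uneven among themselves, and Cpa1 measured 10.1, 7.87 and 8.98 on arrays 1 to 3. On the fasted total arrays it measured 7.07, 7.21 and 6.72. The part of these markers in the chaperone results was not tested.

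Fasting was compared first, to see whether food withdrawal from the dam went with other chaperone levels in the fetal liver. Hsph1 had the largest fasting difference of the 10 in both fractions, which was known when the genes were chosen and is given as a description. Of the other 9 genes, 0 were called in total RNA, where 0.295% of all tested genes were called lower and 1.03% in either direction. In polysome RNA 0 of these 9 were called as well, where 0.423% of tested genes were called lower and 2.01% in either direction. At an unadjusted p under 0.05 by limma, 6 of the 9 passed in total RNA and 4 in polysome RNA, all of them lower, where 16.2% and 20.9% of all tested genes passed in either direction.

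**Figure D1:**
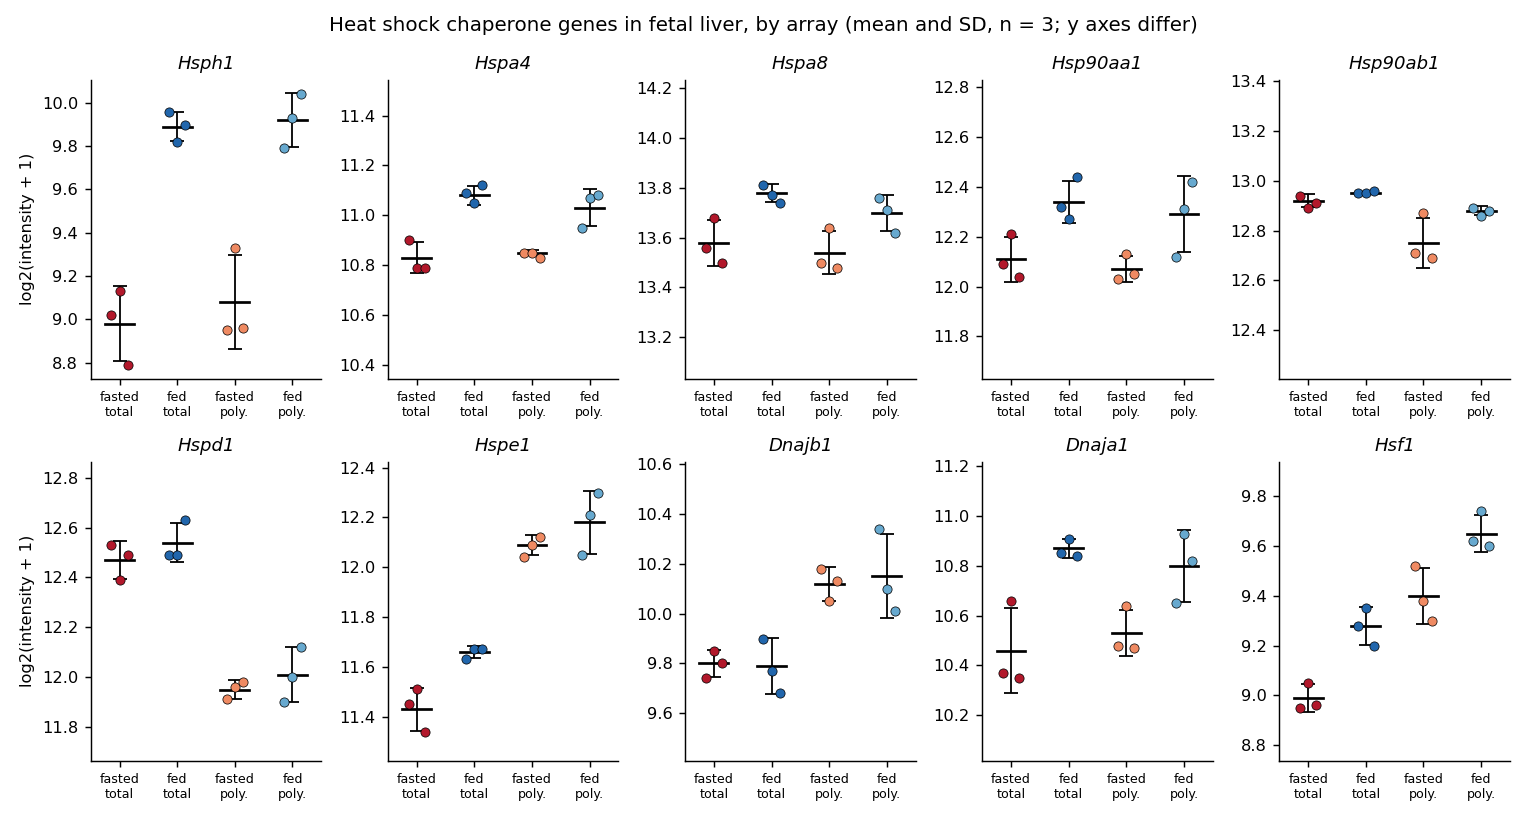
Log2(intensity + 1) of the 10 genes on each of the 12 arrays (points, replicates 1 to 3 from left to right), with the mean and SD of the 3 arrays of a group (bars); y axes differ between panels. The 3 fasted arrays lie below the 3 fed arrays in both fractions for Hsph1, Hspa4, Dnaja1 and Hsf1, and Hspe1 and Hspd1 part by fraction in opposite directions.

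Hsph1 encodes the HSP110 chaperone that acts as a nucleotide exchange factor of HSP70. In total RNA it measured 9.02, 9.13 and 8.79 on the fasted arrays, against 9.96, 9.82 and 9.90 on the fed arrays. In polysome RNA it measured 8.95, 9.33 and 8.96 on the fasted arrays, against 9.79, 9.93 and 10.04 on the fed arrays. All 6 fasted arrays lay below all 6 fed arrays. The difference was -0.91 ± 0.11 log2 in total RNA, a 1.88-fold lower level in fasted livers, and -0.84 ± 0.11 log2 in polysome RNA, a 1.79-fold lower level. Leaving out 1 array at a time kept it between -0.99 and -0.82 in total RNA and between -0.96 and -0.78 in polysome RNA.

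Hspa4 encodes the other HSP110-type protein of the group. It measured 10.90, 10.79 and 10.79 in fasted total RNA, against 11.09, 11.05 and 11.12 in fed total RNA. The polysome arrays gave 10.85, 10.85 and 10.83 in fasted livers, against 10.95, 11.07 and 11.08 in fed livers. The fasted arrays were lower without overlap in both fractions, but the differences of -0.26 ± 0.067 log2 (limma adjusted p = 0.0821) in total RNA and -0.19 ± 0.067 log2 (adjusted p = 0.138) in polysome RNA missed the threshold.

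Hspa8 encodes HSC70, the constitutive cytosolic HSP70 to which these proteins couple. Its brightest probe measured 13.56, 13.68 and 13.50 in fasted total RNA, against 13.81, 13.77 and 13.74 in fed total RNA. In polysome RNA the values were 13.50, 13.64 and 13.48 in fasted livers, against 13.76, 13.71 and 13.62 in fed livers. The groups did not overlap in total RNA and overlapped in polysome RNA. The differences were -0.20 ± 0.075 log2 (limma adjusted p = 0.221) and -0.15 ± 0.075 log2 (adjusted p = 0.266). The probe lies near the top of the scale, at 13.65 on average where the brightest value of any probe on any array was 14.38. The platform table links 5 probes to Hspa8, and on every one the fasted mean was lower, by -0.48 to -0.17 log2 in total RNA and -0.27 to -0.15 log2 in polysome RNA. Near-identical copies of such a gene in the genome cannot be told apart with these values.

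Among the J-domain partners of HSP70, Dnaja1 and Dnajb1 had different values. Dnaja1 measured 10.37, 10.66 and 10.35 in fasted total RNA, against 10.85, 10.91 and 10.84 in fed total RNA. Its polysome values were 10.48, 10.64 and 10.47 in fasted livers, against 10.65, 10.93 and 10.82 in fed livers. The fasted arrays lay below the fed arrays in both fractions, by the narrowest margin in polysome RNA, where the highest fasted array had 10.64 and the lowest fed array 10.65. The differences were -0.41 ± 0.097 log2 (limma adjusted p = 0.0606) in total RNA and -0.27 ± 0.097 log2 (adjusted p = 0.139) in polysome RNA. The total RNA difference is the nearest to the threshold of the 9 genes, and without array 1 of fed polysome, which changes only the shared spread, it passed (adjusted p = 0.0474). Over all fits that left out 1 array its adjusted p ran from 0.0474 to 0.219. It also passed with the replicate number as a fixed block (adjusted p = 0.0301) and with trend and robust priors (adjusted p = 0.0422). It did not pass with the liver as a random replicate block, without the filter, with rescaled arrays or with only the arrays compared. The fixed block gives fed and fasted arrays of a number a shared effect. Such arrays correlated at -0.145 to 0.253, against -0.237 to 0.249 for fed and fasted arrays of different numbers.

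Dnajb1, the J-domain protein of HSP40 that is strongly heat inducible, measured 9.74, 9.85 and 9.80 in fasted total RNA, against 9.90, 9.77 and 9.68 in fed total RNA. In polysome RNA it measured 10.18, 10.05 and 10.13 in fasted livers, against 10.34, 10.10 and 10.01 in fed livers. The groups overlapped in both fractions. The 95% intervals of the fasting difference ran from -0.18 to 0.21 log2 in total RNA and from -0.23 to 0.16 log2 in polysome RNA, around estimates of 0.01 and -0.03.

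Hsp90aa1 and Hsp90ab1 encode the cytosolic HSP90 proteins. Hsp90aa1, the inducible cytosolic HSP90, measured 12.09, 12.21 and 12.04 in fasted total RNA, against 12.32, 12.27 and 12.44 in fed total RNA. The polysome arrays gave 12.03, 12.13 and 12.05 in fasted livers, against 12.12, 12.31 and 12.42 in fed livers. The fasted arrays were lower without overlap in total RNA, and in polysome RNA only the highest fasted and the lowest fed array crossed. The differences were -0.23 ± 0.087 log2 (limma adjusted p = 0.217) and -0.22 ± 0.087 log2 (adjusted p = 0.179).

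Hsp90ab1, the constitutive cytosolic HSP90, measured 12.94, 12.89 and 12.91 in fasted total RNA, against 12.95, 12.95 and 12.96 in fed total RNA. Its polysome values were 12.71, 12.87 and 12.69 in fasted livers, against 12.89, 12.86 and 12.88 in fed livers. The total RNA groups did not overlap, although they differed by only -0.04 ± 0.067 log2 (limma adjusted p = 0.841). The polysome difference was -0.12 ± 0.067 log2 (adjusted p = 0.318), and the groups overlapped.

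The mitochondrial pair encodes the chaperonin HSP60 (Hspd1) and its lid HSP10 (Hspe1). Hspd1 measured 12.53, 12.39 and 12.49 in fasted total RNA, against 12.49, 12.49 and 12.63 in fed total RNA. Hspe1 measured 11.45, 11.51 and 11.34 in fasted total RNA, against 11.63, 11.67 and 11.67 in fed total RNA. The Hspd1 groups overlapped and the Hspe1 groups did not. The Hspd1 difference was -0.06 ± 0.077 log2 in either fraction (limma adjusted p = 0.747 in total and 0.727 in polysome RNA). The Hspe1 difference was -0.22 ± 0.077 log2 in total RNA (adjusted p = 0.178) and -0.10 ± 0.077 log2 in polysome RNA (adjusted p = 0.512). The second, dimmer Hspd1 probe differed by -0.16 log2 in total RNA and 0.01 log2 in polysome RNA.

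Hsf1 encodes the transcription factor itself, whose activity is controlled largely after translation. It measured 8.95, 9.05 and 8.96 in fasted total RNA, against 9.28, 9.35 and 9.20 in fed total RNA. In polysome RNA it measured 9.52, 9.38 and 9.30 in fasted livers, against 9.62, 9.74 and 9.60 in fed livers. The fasted arrays were lower without overlap in both fractions, while the differences of -0.29 ± 0.078 log2 (limma adjusted p = 0.094) and -0.25 ± 0.078 log2 (adjusted p = 0.0948) missed the threshold.

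**Figure D2:**
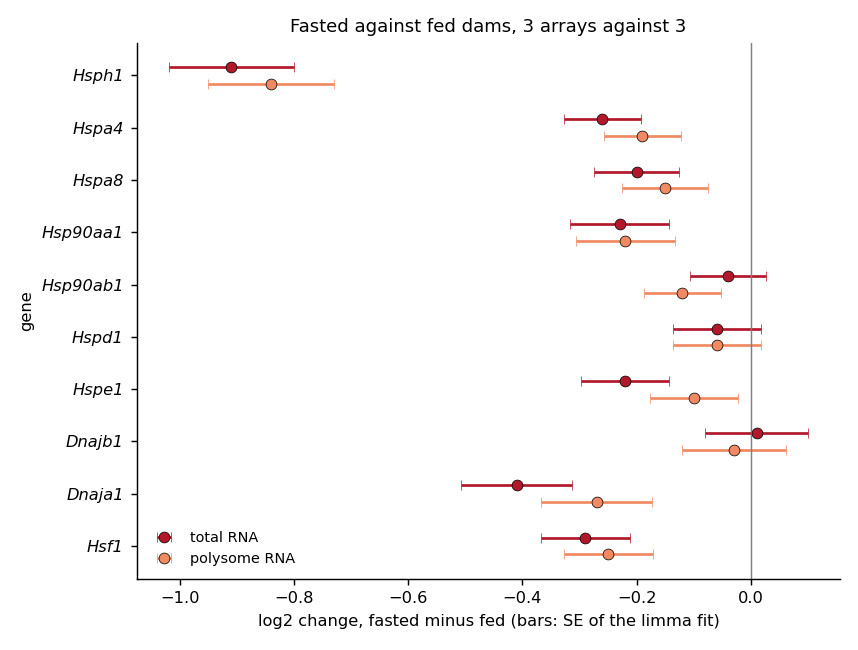
Difference of fasted minus fed in log2 units for each of the 10 genes in total RNA and in polysome RNA (points), with the SE of the limma fit (bars). Hsph1 lies at -0.91 and -0.84, and the other 9 genes lie between -0.41 and 0.01.

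Counted over the 10 genes, the fasted mean was lower for 9 in total RNA and for all 10 in polysome RNA, where 49.8% and 46.0% of all tested genes were lower. In total RNA the 3 fasted arrays lay below the 3 fed arrays for 8 of the 10, against 11.9% of tested genes, and in polysome RNA for 4 of the 10, against 8.38%. The 4 were Hsph1, Hspa4, Dnaja1 and Hsf1, which were lower without overlap in both fractions, as were 290 of the tested genes (2.85%). The median difference of the 10 genes was -0.23 log2 in total RNA and -0.17 log2 in polysome RNA, where the median of all tested genes was 0.001 and 0.016. These counts include Hsph1, whose fall was known, and the other genes were named with results of these arrays in view. Genes also shared an order of arrays, mostly in the fasted groups. Array 2 was the highest of the 3 for 7 of the 10 genes in fasted total RNA and for 6 of the 10 in fasted polysome RNA. In fed total and in fed polysome RNA array 3 was most often the highest, for 5 of the 10 in each. No share of all tested genes is given for these counts, and a shift of whole arrays was not tested. The genes were read on the same arrays and are not independent observations of fasting.

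Over the 12 arrays, the genes whose log2 profile was most like that of Hsph1 by Pearson correlation were Acaca (0.926), Hspa4 (0.925), Dnaja1 (0.916), Fasn (0.913) and Fkbp4 (0.906). Acaca and Fasn encode the enzymes of fatty acid synthesis acetyl-CoA carboxylase and fatty acid synthase, and Fkbp4 an HSP90 cochaperone. Among the other chaperone genes the correlation was 0.863 for Hsp90aa1, 0.825 for Hspa8, 0.578 for Hsf1, 0.471 for Hsp90ab1, 0.347 for Hspe1, 0.055 for Hspd1 and 0.03 for Dnajb1. These correlations describe 12 arrays that share 2 diets and 2 fractions.

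Whether fasting had a different effect on polysome and on total RNA was tested as the difference between the fasting effects, polysome minus total. By limma 0 of the 10174 genes were called, and 549 (5.4%) had an unadjusted p under 0.05, none of them among the 10. For Hsph1 the difference between the effects was 0.07 log2 with a 95% interval of -0.27 to 0.42 (limma adjusted p = 0.966). The largest sizes among the 10 were 0.14 log2 for Dnaja1, with an interval of -0.16 to 0.44, and 0.13 log2 for Hspe1, with an interval of -0.11 to 0.36. With 3 arrays a group, differences within these intervals remain possible, and the intervals are no limit of detection.

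Polysome RNA was next compared with total RNA within each diet, to show which chaperone messages made up a larger or smaller share of the polysome preparation than of total RNA. Of the 10 genes, 4 were called in fasted livers and the same 4 in fed livers, where 43.7% and 43.5% of all tested genes were called, so the count is near the background. Hspe1, Hsf1 and Dnajb1 were higher in polysome RNA, and Hspd1 was lower. In each diet the polysome arrays lay above the total arrays without overlap for 3 of the 10 genes (31.1% of tested genes in fasted and 29.4% in fed livers) and below them for 2 of the 10, Hspd1 and Hsp90ab1 (21.5% in fasted and 23.5% in fed livers). The RNA of the 2 fractions was extracted by different methods, so fraction and extraction cannot be told apart.

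**Figure D3:**
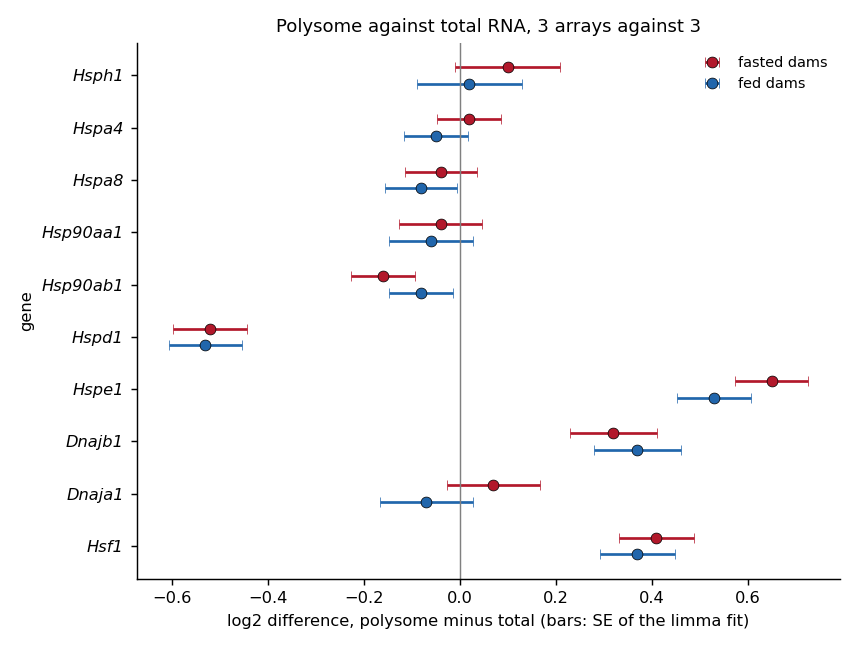
Difference of polysome minus total RNA in log2 units for each of the 10 genes in fasted and in fed dams (points), with the SE of the limma fit (bars). Hspe1 lies at 0.65 and 0.53 and Hspd1 at -0.52 and -0.53, on opposite sides of 0.

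The mitochondrial pair moved in opposite directions. Hspe1 measured 12.04, 12.09 and 12.12 in fasted polysome RNA, against 11.45, 11.51 and 11.34 in fasted total RNA, and rose by 0.65 ± 0.077 log2 (limma adjusted p = 2.51e-05). In fed livers it measured 12.05, 12.21 and 12.30 in polysome RNA, against 11.63, 11.67 and 11.67 in total RNA, and rose by 0.53 ± 0.077 log2 (adjusted p = 0.000138). The polysome arrays were higher without overlap in both diets.

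Hspd1 measured 11.91, 11.96 and 11.98 in fasted polysome RNA, against 12.53, 12.39 and 12.49 in fasted total RNA, and fell by 0.52 ± 0.077 log2 (limma adjusted p = 0.000146). In fed livers it measured 11.90, 12 and 12.12 in polysome RNA, against 12.49, 12.49 and 12.63 in total RNA, and fell by 0.53 ± 0.077 log2 (adjusted p = 0.000132). The polysome arrays were lower without overlap in both diets, and the second Hspd1 probe was lower as well, by -0.60 log2 in fasted and -0.77 log2 in fed livers. The subunits of 1 chaperonin machine, whose genes share the element printed above, thus had opposite signs between the fractions. The annotated gene of Hspe1 covers 3089 bases and that of Hspd1 10723 bases. These are spans on the chromosome and not message lengths, and a link to the opposite signs was not tested.

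Hsf1 measured 9.52, 9.38 and 9.30 in fasted polysome RNA, against 8.95, 9.05 and 8.96 in fasted total RNA. It was 0.41 ± 0.078 log2 higher (limma adjusted p = 0.00088), and in fed livers 0.37 ± 0.078 log2 higher (adjusted p = 0.00174). Dnajb1 was higher by 0.32 ± 0.091 log2 in fasted livers (adjusted p = 0.0117) and by 0.37 ± 0.091 log2 in fed livers (adjusted p = 0.00544). The polysome arrays of both genes lay above the total arrays without overlap in both diets.

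Hsp90ab1 was lower in polysome RNA without overlap in both diets. The difference was -0.16 ± 0.067 log2 in fasted livers, with limma adjusted p = 0.0664, and adjusted p = 0.0394 with the liver as a random replicate block. Without array 2 of fasted polysome it was -0.22 log2 (adjusted p = 0.0184), the only 1 of 12 fits leaving out 1 array that passed. It also passed with quantile normalization (-0.20 log2, adjusted p = 0.0348) and with trend and robust priors (adjusted p = 0.018). In fed livers the difference was -0.08 ± 0.067 log2 (adjusted p = 0.385). The remaining genes, Hsph1, Hspa4, Hspa8, Hsp90aa1 and Dnaja1, differed between fractions by -0.08 to 0.10 log2, and their groups overlapped in both diets. For Hsph1 the 95% intervals ran from -0.15 to 0.35 log2 in fasted livers and from -0.22 to 0.27 log2 in fed livers.

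The wider chaperone network was described with 11 gene lists, which share some genes. Among the 20 measured HSP90 family members and cochaperones, 3 fell in fasted total RNA, against 0.295% of all tested genes, and 0 rose. Without overlap, 10 of the 20 were lower, against 11.9% of all tested genes, and 2 were higher. The 3 were Ahsa2, a homologue of an HSP90 ATPase activator, Fkbp4, an immunophilin of steroid receptor complexes, and Ppid, the cyclophilin of the same complexes. In polysome RNA 1 of the 20 fell, Fkbp4, against 0.423% of all tested genes. Without overlap 7 were lower there, against 8.38% of all tested genes, and 2 were higher. No share of all tested genes is given for the counts that were higher without overlap.

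Ahsa2 measured 8.65, 8.56 and 8.70 in fasted total RNA, against 9.23, 9.12 and 9.10 in fed total RNA, a difference of -0.52 ± 0.081 log2 (limma adjusted p = 0.0137) that passed in 9 of 12 fits leaving out 1 array. Fkbp4 measured 9.73, 9.98 and 9.63 in fasted total RNA, against 10.37, 10.23 and 10.32 in fed total RNA, a difference of -0.53 ± 0.09 log2 (adjusted p = 0.0181). In polysome RNA Fkbp4 measured 10.04, 9.96 and 9.95 in fasted livers, against 10.47, 10.31 and 10.33 in fed livers, a difference of -0.39 ± 0.09 log2 (adjusted p = 0.0448). These groups did not overlap, and the calls of Fkbp4 passed in 9 of 12 fits that left out 1 array in total RNA and in 3 of 12 in polysome RNA. The total RNA calls of Ahsa2 and Fkbp4 were lost without fed total 1 (limma adjusted p = 0.0649 and 0.0808) and without fasted total 1 (0.0553 and 0.0749). That of Ahsa2 was also lost without fasted total 2 (0.0628), and that of Fkbp4 without fed total 3 (0.055). Ppid was lower by -0.44 ± 0.095 log2 in total RNA (adjusted p = 0.0474), a call kept in 2 of 12 such fits, and by -0.37 ± 0.095 log2 in polysome RNA (adjusted p = 0.0583). Chordc1, an HSP90-binding protein with a triplet in its promoter window, was lower by -0.46 ± 0.1 log2 in total RNA (adjusted p = 0.0503).

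**Figure D4:**
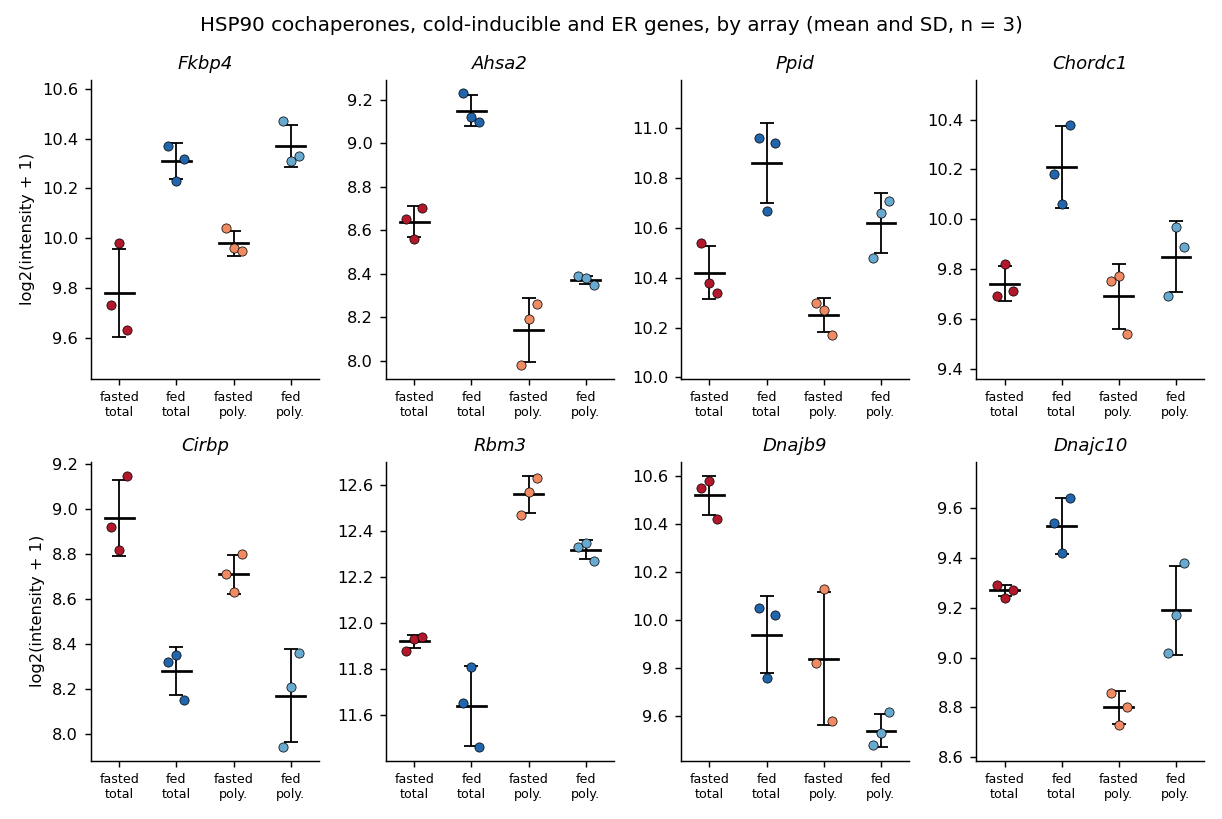
Log2(intensity + 1) on each of the 12 arrays (points), with mean and SD of 3 arrays (bars), for HSP90 cochaperones (Fkbp4, Ahsa2, Ppid, Chordc1), cold-inducible RNA-binding proteins (Cirbp, Rbm3) and ER J-domain proteins (Dnajb9, Dnajc10). In total RNA the 3 fasted arrays lie below the 3 fed arrays for the 4 cochaperones and Dnajc10, and above them for Cirbp, Rbm3 and Dnajb9.

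The cytosolic chaperonin TRiC and its partner prefoldin had 0 of 12 measured subunits called for fasting in either fraction. In total RNA 10 of the 12 were lower without overlap, against 11.9% of all tested genes, with a median of -0.19 log2. In polysome RNA 5 of the 12 were lower without overlap, against 8.38% of all tested genes. Cct3 was lower by -0.27 log2 (limma adjusted p = 0.109) and Pfdn5 by -0.30 log2 (adjusted p = 0.0899) in total RNA. Among other targets of HSF1, 2 of 12 fell in total RNA (0.295% of all tested genes) and 1 of 12 in polysome RNA (0.423%), and these are Fkbp4 and Ppid again. The remaining 5 tested genes of the HSP70 and HSP110 family, 27 J-domain proteins and 10 HSP70 cochaperones had 0 called for fasting in either fraction. The 5 small heat shock proteins and 14 mitochondrial chaperones and proteases had 0 called as well. The same held for the heat shock factor gene Hsf2 and for Hsbp1, which encodes a heat shock factor binding protein. In polysome RNA some of these genes lay near the threshold. Pfdn5 was lower by -0.34 ± 0.081 log2 (limma adjusted p = 0.0511) and Dnaja4 by -0.47 ± 0.12 log2 (adjusted p = 0.0564). Dnajb4, also on the list of HSF1 targets, was higher by 0.32 ± 0.089 log2 (adjusted p = 0.0696), and without overlap in both fractions. Hspb6 was higher by 0.39 ± 0.12 log2 (adjusted p = 0.0915). The J-domain list leaves out Dnajb9 and Dnajc10, which carry a J-domain but were counted with the ER chaperones, and holds the ER protein Sec63. The inducible HSP70 genes Hspa1a and Hspa1b are not named on the array.

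Both cold-inducible RNA-binding protein genes were higher in fasted livers, and 1 of the 2 was called in each fraction, where 0.737% of all tested genes were called higher in total RNA and 1.59% in polysome RNA. Cirbp measured 8.92, 8.82 and 9.15 in fasted total RNA, against 8.32, 8.35 and 8.15 in fed total RNA, and rose by 0.69 ± 0.11 log2 (limma adjusted p = 0.0153). The polysome arrays gave 8.71, 8.63 and 8.80 in fasted livers, against 7.94, 8.21 and 8.36 in fed livers, and rose by 0.55 ± 0.11 log2 (adjusted p = 0.035). The groups did not overlap in either fraction, and each call passed in 9 of 12 fits that left out 1 array. The total RNA call was lost without fed total 1, fed total 3 or fasted total 1 (limma adjusted p = 0.0577, 0.0544 and 0.0558), and the polysome call without fed polysome 2, fasted polysome 1 or fasted polysome 3 (0.0884, 0.111 and 0.127). Rbm3 was higher by 0.28 ± 0.086 log2 in total RNA (adjusted p = 0.135) and by 0.24 ± 0.086 log2 in polysome RNA (adjusted p = 0.143), also without overlap.

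Of 18 ER chaperones and folding enzymes, 1 rose in fasted total RNA (0.737% of all tested genes), Dnajb9, a J-domain partner of the ER HSP70, by 0.57 ± 0.12 log2 (limma adjusted p = 0.0431). In fasted polysome RNA 1 fell (0.423% of all tested genes), Dnajc10, a disulfide reductase with a J-domain, by 0.39 ± 0.092 log2 (adjusted p = 0.046). The Dnajb9 call was kept in 3 of 12 fits that left out 1 array, and the Dnajc10 call in 1 of 12.

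Polysome and total RNA were also compared over the lists, with no test between lists. Of the 18 ER chaperones, 15 were called lower and 1 higher in polysome RNA of fasted livers, and 16 lower and 1 higher in fed livers, where 18.2% and 19.4% of all tested genes were called lower. Calr, the ER lectin calreticulin, was lower by -0.70 log2 in fasted livers (limma adjusted p = 2.88e-05) and by -0.65 log2 in fed livers (adjusted p = 5.68e-05). Of the 10 HSP70 cochaperones, 7 were called higher and 0 lower in fasted livers, and 6 higher and 0 lower in fed livers, where 25.5% and 24.1% of all tested genes were called higher. Grpel1, the nucleotide exchange factor of mitochondrial HSP70, was higher by 1.01 log2 in fasted livers (adjusted p = 2.62e-06) and by 0.86 log2 in fed livers (adjusted p = 9.94e-06). TRiC and prefoldin had 4 higher and 2 lower of 12 in fasted livers, and 5 higher and 3 lower in fed livers. The HSP90 list had 5 higher and 2 lower of 20 in fasted livers, and 5 higher and 5 lower in fed livers. The mitochondrial list had 3 higher and 2 lower of 14 in fasted livers, and 3 higher and 0 lower in fed livers. The 10 chaperone genes themselves stood at 3 called higher and 1 lower in both diets.

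**Figure D5:**
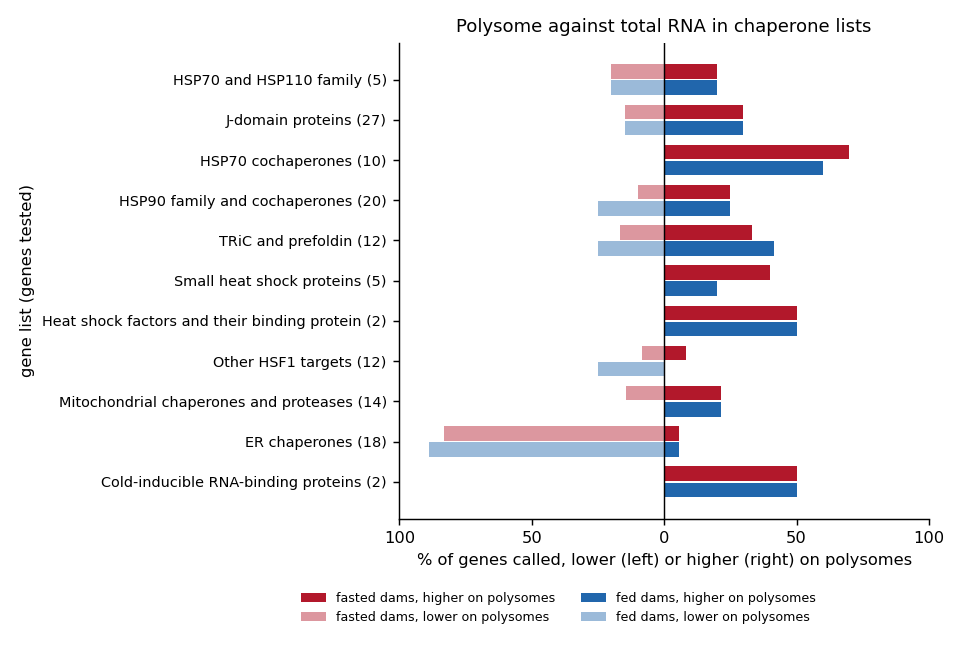
Percent of tested genes of each chaperone list that were called lower (left of 0) or higher (right of 0) in polysome than in total RNA, in fasted and in fed dams; the number of genes tested is in parentheses. ER chaperones extend furthest to the left, with 15 and 16 of 18 genes lower, and HSP70 cochaperones furthest to the right, with 7 and 6 of 10 genes higher.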

How the data were processed

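The values were the intensity values deposited by the authors, 1 per probe and array, which the submitters' processing notes credit to RMA without a version. On their linear scale, from 3.62 to 21344, they were turned into log2(value + 1). The labels' protocols give guanidine thiocyanate with cesium chloride for total RNA, and acid phenol with chloroform for polysome RNA.

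Of 28826 probes, 15209 were linked to 1 gene symbol (14497 genes), 306 to several, and 13311 were not listed. The brightest probe stood for a gene. Genes under the 40th percentile of mean log2 intensity (6.07) were left out, which left 10174. Using limma 3.58.1 (R 4.3.3), 1 mean per group was estimated over the 12 arrays together (8 residual degrees of freedom), with two-sided p-values adjusted by Benjamini-Hochberg over these genes. The fit was run on simulated arrays with independent noise, with changes put only into fasted total arrays. These arrays lack the pairing described below, so the run cannot show how the fit behaves with it. The p-values set each difference against the spread between arrays within groups, estimated over all 4 groups and moderated across genes.

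The members, lists, tests and named genes (the 10 members, and listed pathway genes) were chosen with earlier results of these data known. Same-numbered total and polysome arrays of a diet had deviations from their group means that correlated at 0.154 to 0.362 in 6 pairs. The numbers were therefore taken to pair the fractions within a diet, from the data and not the labels. The main fit did not use this pairing and treated all arrays as independent. The pairing entered only the alternatives with a replicate block. Fed and fasted arrays of a number correlated at -0.145 to 0.253. Alternatives were the filter, the scaling, the probes of a gene, the priors, the arrays in the fit, replicate blocks, the added 1 and each array left out. Promoters and loci are from RefSeq (GRCr8).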

Additional observations from a re-analysis of the deposited data

How the results depend on the processing

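The limits are 3 arrays a group, a number whose meaning the labels do not give, and a fraction that cannot be told apart from its extraction. Hspe1, Hspd1, Hsf1 and Dnajb1 kept their direction and their side of the threshold between fractions in both diets under every alternative run. The count of the 10 genes called for fasting in total RNA (1, which is Hsph1, a description) was 2, with Dnaja1, with trend and robust priors (adjusted p = 0.0422) and with the number as a fixed replicate block (adjusted p = 0.0301), and 1 to 2 with 1 array left out. It was 1 in each such fit in polysome RNA, 0 for the difference between effects, 4 to 5 between fractions in fasted and 4 in fed livers. All genes called for fasting in total RNA (105) became 57 without the filter, 42 with only the arrays compared, and 17 (without fasted total 1) to 147 (without fed polysome 1) with 1 array left out. Those in polysome RNA (205) became 93, 40, 394 with trend and robust priors, 309 with the fixed block, and 11 (without fasted polysome 3) to 755 (without fasted polysome 2). One further alternative, a fit without both array 1 of fed polysome and array 2 of fasted polysome, was chosen after seeing the data, because the polysome count rose most without either of them; its higher counts therefore support nothing. It gave 199 genes in total RNA, 1263 in polysome RNA and 2 for the difference between effects, and of the 10 genes 2 in total RNA and 3 in polysome RNA (Hsph1, Dnaja1 with adjusted p = 0.0311, Hsp90aa1 with 0.0365), while the polysome call of Fkbp4 was lost (0.0725). Under it signs reversed for Dnajb1 (0.098) in fasting polysome RNA, for Dnajb1 (0.084), Hsp90aa1 (-0.099), Hspd1 (-0.054) and Hsph1 (-0.114) in the difference between effects, for Hsph1 (-0.025) between fractions in fasted livers, and for Dnaja1 (0.008) and Hsp90aa1 (0.025) in fed livers. Other reversals were Hspd1 (-0.028) in the difference between effects and Hspa4 (-0.026) between fractions in fasted livers with quantile normalization, and Hspa8 (0.005) there with median-centred arrays. None of the reversed values passed the threshold, and the cause was not tested. With 1 array left out, reversals lay within these ranges. For fasting in total RNA they were Dnajb1 from -0.038 to 0.072 and Hsf2 from -0.078 to 0.072. For fasting in polysome RNA they were Dnajb1 from -0.102 to 0.061 and Hspd1 from -0.112 to 0. For the difference between effects they were Dnajb1 from -0.115 to 0.048, Hsf1 from -0.024 to 0.086, Hsp90aa1 from -0.069 to 0.081, Hspa8 from -0.009 to 0.092, Hspd1 from -0.047 to 0.065 and Hsph1 from -0.05 to 0.15. Between fractions in fasted livers they were Hsp90aa1 from -0.083 to 0.006, Hspa4 from -0.001 to 0.053, Hspa8 from -0.086 to 0.014 and Hsph1 from -0.025 to 0.175. Between fractions in fed livers they were Dnaja1 from -0.135 to 0.008, Hsp90aa1 from -0.125 to 0.025 and Hsph1 from -0.034 to 0.089. Ppid lost its call in total RNA without the filter, with centred arrays, with the mean of its probes, with only the arrays compared and with the fixed block (adjusted p = 0.0582), and Dnajb9 lost its own without the filter, with only the arrays compared and with the fixed block (0.0572). In polysome RNA Fkbp4 and Dnajc10 lost theirs without the filter (0.069 and 0.0709), with centred arrays (0.055 and 0.0621) and with only the arrays compared (0.101 and 0.136), which also ended the calls of Fkbp4 in total RNA (0.067) and Cirbp in polysome RNA (0.0857). The random block of liver changed no call among the named genes other than that of Hsp90ab1. For fasting in polysome RNA, Dnaja4, Dnajb4 and Pfdn5 gained a call with trend and robust priors (limma adjusted p = 0.0431, 0.0471 and 0.0431). Pfdn5 also gained one with quantile normalization (0.0347). With 1 array left out, Dnaja4, Dnajb4 and Hspb6 passed there in 2 of 12 fits, and Cct3, Cryab and Pfdn5 in 1 of 12. Dnaja4, Cct3 and Pfdn5 were lower in these fits, and Dnajb4, Hspb6 and Cryab higher. Over all 3180 alternative values of named genes, 3029 kept direction and side of the threshold, 78 lost a call, 31 gained one and 42 reversed.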
